A study of Mus musculus with 6 samples.

Results

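The 10 genes examined here encode the nicotinic acetylcholine receptor of skeletal muscle and the proteins that gather it under the nerve terminal at the neuromuscular junction. They were *Chrna1*, *Chrnb1*, *Chrnd*, *Chrng* and *Chrne*, which encode the receptor subunits, and *Agrn*, *Lrp4*, *Musk*, *Dok7* and *Rapsn*, which encode the agrin, MuSK and rapsyn pathway. They were chosen by name for these functions, with earlier results of these data known, and they are 10 of the 23231 genes listed with counts in at least 1 library. RNA-Seq was performed on 6 libraries of C2C12 cells, a mouse myoblast line that exits the cell cycle and fuses into myotubes when serum is lowered. All cells carried dCas9-KRAB, a nuclease-dead Cas9 fused to a transcriptional repressor domain, driven by the human ubiquitin C promoter and delivered by lentivirus at a multiplicity of infection of 100. All were selected with 2 μg/ml puromycin and collected on day 5 of differentiation in 2% horse serum. The 3 dCas9-KRAB libraries carried no enhancer sgRNA, and the 3 dCas9-KRAB-En5 libraries carried in addition 2 sgRNAs directed at Myog-En5, an enhancer of the myogenic factor gene *Myog*. The control therefore differed from the treated group in carrying no sgRNA against En5, and no untransduced culture was analysed here. The comparison asks how the synaptic genes of muscle stood when that enhancer was targeted.

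The muscle receptor is a pentameric ion channel that opens when it binds acetylcholine from the motor nerve. It holds 2 α1 subunits with 1 each of β1, δ and either γ, in fetal or denervated muscle, or ε, in adult innervated muscle. Agrin released by the nerve binds LRP4, which activates the kinase MuSK. MuSK, held active by its adaptor DOK7, drives the clustering of receptors through rapsyn, and myogenic basic helix-loop-helix factors such as MYOD1 and MYOG bind E-box sequences in the promoters of several receptor subunit genes.

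The sequences below show what was targeted and what stands before an annotated start of representative members, because the targeted enhancer lies far from every member. Both sgRNA sites lie upstream of *Myog* in GRCm38, at chr1:134283252-134283274 on the plus strand and chr1:134283558-134283580 on the minus strand, 6715 and 6409 bp from its start. Capitals mark the PAM, the short motif that Cas9 needs beside its target.
Myog-En5-sgRNA1: gaaggggttactgtcggcagAGG
Myog-En5-sgRNA2: gaccggaagattgaaccactGGG
*Chrng* and *Chrnd* lie on the same chromosome as *Myog*, with 47077294 bp between *Chrng* and *Myog*, and the other 8 members lie on chromosomes 2, 4, 5 and 11.

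Promoter windows from RefSeq (GRCm38.p6) were found for 7 of the 10 members, and 130 bases of 4 of them are shown, from position -160 to -31 relative to the annotated start. They are those of the α1 and γ subunit genes, which fell the most among the subunit genes, the ε gene, which had almost no reads, and *Agrn*, whose level did not separate the groups. Their positions are chr2:73580369-73580498 (minus strand), chr1:87205651-87205780 (plus strand), chr11:70619225-70619354 (minus strand) and chr4:156197519-156197648 (minus strand), in this order. The RefSeq start used for *Chrng*, chr1:87205811, lies inside the gene as GENCODE places it, at chr1:87204657-87212694. The *Chrng* window therefore lies within that GENCODE gene and not before it. Capitals mark the E-box CANNTG and, in *Chrne*, the N-box core CCGGAA, a site for ETS family factors.
*Chrna1*: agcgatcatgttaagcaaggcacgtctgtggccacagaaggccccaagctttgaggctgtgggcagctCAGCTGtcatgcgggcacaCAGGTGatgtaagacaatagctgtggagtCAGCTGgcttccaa
*Chrng*: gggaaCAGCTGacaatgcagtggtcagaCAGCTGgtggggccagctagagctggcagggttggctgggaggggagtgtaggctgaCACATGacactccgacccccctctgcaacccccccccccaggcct
*Chrne*: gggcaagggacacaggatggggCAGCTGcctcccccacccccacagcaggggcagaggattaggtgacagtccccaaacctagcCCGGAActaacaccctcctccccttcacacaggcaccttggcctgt
*Agrn*: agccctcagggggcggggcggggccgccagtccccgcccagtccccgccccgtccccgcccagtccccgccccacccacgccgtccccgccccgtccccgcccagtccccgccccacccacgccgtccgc
In the 250 bases before the start, the letters CANNTG occurred 3 times in each of *Chrna1*, *Chrng*, *Musk* and *Chrnb1*. They occurred 1 time in *Chrne* and 1 time at the first of the 2 annotated starts of *Dok7*. *Agrn* held none at the start shown and 1 at its second annotated start. CAGCTG, a form of the E-box that also counts as CANNTG, occurred 2 times in *Chrna1*, 2 times in *Chrng*, and 1 time each in *Musk* and *Chrne*. CAGGTG, another form of CANNTG, occurred 1 time in *Chrna1* and 1 time in *Chrnb1*, and CCGGAA 1 time in *Chrne*. Searched on both strands, CANNTG was present in 66.2% of all 32851 windows, CAGCTG in 13.0%, CAGGTG in 17.2% and CCGGAA in 12.0%. These matches describe letters and are not binding sites.

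Libraries held between 31831093 and 73988425 counts, and a floor of 3 counts corresponded to 0.0405 to 0.0942 CPM, the count out of 1000000 in its library. Such floors reflect counting error alone. *Myog*, the gene whose enhancer was targeted, had 43211, 68488 and 74845 counts in the dCas9-KRAB libraries and 12, 0 and 0 counts in the dCas9-KRAB-En5 libraries. *Myod1* fell from 74.5 ± 38.6 to 0.0359 ± 0.0382 TPM (SD, n = 3). TPM is the deposited count per gene length scaled to a fixed total in each library, so that levels of different genes can be set beside each other. The dCas9-KRAB-En5 replicate 3 library stood apart with 13991 genes listed against 17084 to 19395 in the others, so results were also computed without it. The TPM of 10 skeletal muscle genes summed to 13543.5 to 16012.9 in dCas9-KRAB and to 11.6 to 19.5 in dCas9-KRAB-En5, so the defining markers of differentiated cells of the labelled line were nearly missing from the latter group. The TPM of 20 macrophage genes summed to 4352 to 4964 in dCas9-KRAB and to 5784 to 9414 in dCas9-KRAB-En5, with 11 of the 20 at 10 TPM or more in all 6 libraries and *Mrc1* listed in none. These genes did not change alike. Without overlap between the groups, *Cd68*, *Adgre1* and *Fcgr3* were higher in dCas9-KRAB-En5, and *Mpeg1* and *Aif1* lower. *C1qa*, *C1qb* and *C1qc* stayed under 1 TPM in every library. All 6 libraries are labelled as C2C12 cells, and whether they hold RNA of other cells, which would bear on every fold change below, was not tested. These marker sums differed between the same groups as every result below, and their part in the results was not tested. In bulk RNA, fewer cells of a type and less RNA per cell cannot be told apart.

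In dCas9-KRAB cells, transcripts of the receptor and of its anchor rapsyn were abundant, while those of the MuSK kinase complex were scarce. The mean levels in TPM were highest for *Rapsn* (92.1 ± 14.8), *Chrng* (81.9 ± 32.8), *Chrna1* (66.8 ± 21.8) and *Chrnd* (50.3 ± 11.04) (SD, n = 3). Neighbours in this order overlapped between libraries. *Agrn* (11.4 ± 7.80 TPM) and *Chrnb1* (10.4 ± 3.16 TPM) followed, overlapped each other and lay below the lowest *Chrnd* library. *Dok7* (1.04 ± 0.726 TPM), *Lrp4* (0.777 ± 0.412 TPM) and *Musk* (0.432 ± 0.255 TPM) formed a lower set with overlapping ranges, and *Chrne* was lowest at 0.0580 ± 0.0509 TPM. In dCas9-KRAB-En5 cells the order was different, with *Agrn* at 13.5 ± 8.04 TPM and *Rapsn* at 6.88 ± 5.92 TPM overlapping at the top. *Chrnb1*, *Lrp4* and *Chrnd* followed at means of 1.60, 0.360 and 0.230 TPM, and the other 5 members had means under 0.1 TPM.

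**Figure D1:**
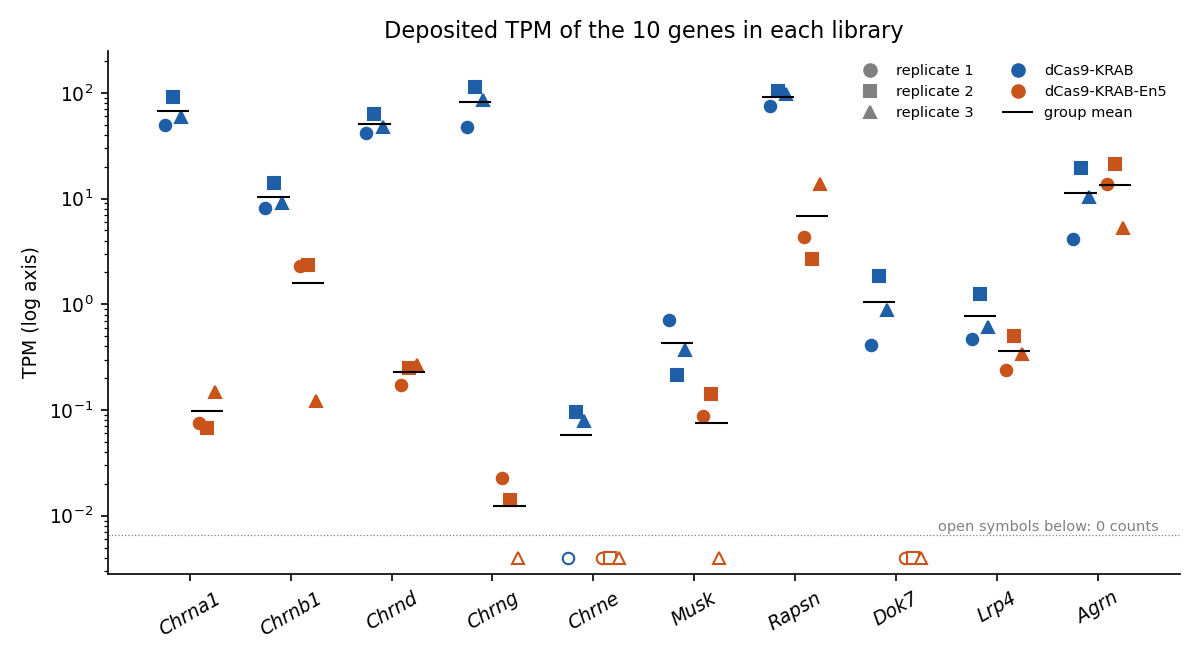
TPM of the 10 genes in each library on a logarithmic axis, one symbol per library (circle, square and triangle for replicates 1 to 3), with dCas9-KRAB in blue, dCas9-KRAB-En5 in orange, group means as lines and open symbols for 0 counts. *Chrna1*, *Chrnd* and *Chrng* lie between 41.3 and 112 TPM in dCas9-KRAB and at or under 0.266 TPM in dCas9-KRAB-En5, while the points of *Lrp4* and *Agrn* overlap between the groups.

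Of the 10 members, 9 passed edgeR's low-count filter and were tested, and *Chrne* did not. Calls needed a log2 fold change of 1 or more in size together with an adjusted p no larger than 0.01. In edgeR's quasi-likelihood test, 4 members were called lower in dCas9-KRAB-En5 cells (*Chrna1*, *Chrnd*, *Chrng* and *Dok7*), beside 4.67% of all 14378 genes tested, and 0 were called higher, beside 1.52%. With the replicate number as a block, 6 were called lower, with *Chrnb1* and *Rapsn* added, beside 6.79% of all genes, and 0 higher, beside 3.94%. Without dCas9-KRAB-En5 replicate 3 the count was also 6, beside 14.0% of all genes. DESeq2 called 6 members lower, beside 8.66% of the genes it tested, and 0 higher, beside 5.88%. Only 4 of the 10 members (*Chrnd*, *Rapsn*, *Lrp4* and *Agrn*) reached the filter's minimum of 0.247 CPM in all 3 dCas9-KRAB-En5 libraries. The other 5 tested members entered the test through the group in which they were higher, so their share of calls is a description. The TPM of 7 members did not overlap between the groups, with dCas9-KRAB-En5 lower, beside 19.7% of all genes tested, and 0 members lay without overlap in the opposite direction, beside 7.76%. The labels do not say that replicates came from separate cultures, so the p-values measure the spread between these libraries, which may be technical.

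The γ and α1 subunit genes, which encode the fetal subunit and the main acetylcholine-binding subunit, were among the most abundant members in dCas9-KRAB cells and close to undetected in dCas9-KRAB-En5 cells. *Chrng* (ENSMUSG00000026253, chr1:87204657-87212694, plus strand) had 47.1, 112 and 86.4 TPM in dCas9-KRAB replicates 1 to 3 and 0.0227, 0.0142 and 0 TPM in dCas9-KRAB-En5 replicates 1 to 3. These rest on 5323, 17496 and 16115 counts against 2, 1 and 0. The groups were far apart, and the dCas9-KRAB-En5 libraries stayed at or below the floor of 3 counts. With 38934 counts in all against 3, the depth-scaled ratio of the groups was 7696 (95% exact interval 2633 to 37321, counting error only). The fitted log2 fold change of *Chrng* was -12.82 (SE 0.84, edgeR adjusted p = 1.82e-05), and its size depends on the prior count at these levels.

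*Chrna1* (ENSMUSG00000027107, chr2:73563215-73580338, minus strand) had 49.8, 91.3 and 59.2 TPM in dCas9-KRAB and 0.0753, 0.0672 and 0.149 TPM in dCas9-KRAB-En5 libraries. The dCas9-KRAB-En5 values rest on 7, 5 and 15 counts, and the highest of them lay far below the lowest dCas9-KRAB library. *Chrna1* fell 686-fold in mean TPM, with a log2 fold change of -9.30 (SE 0.82, edgeR adjusted p = 3.67e-05). Of its 50-base stretches, 3.02% also occur in another annotated gene, and those of the other subunit genes do not.

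*Chrnd*, which encodes the δ subunit found in both fetal and adult receptors, changed in the same way. *Chrnd* (ENSMUSG00000026251, chr1:87190607-87200070, plus strand) had 41.3, 62.7 and 47.0 TPM in dCas9-KRAB and 0.172, 0.251 and 0.266 TPM in dCas9-KRAB-En5 libraries. It fell 219-fold in mean TPM (log2 fold change -7.77, SE 0.66, edgeR adjusted p = 2.88e-05). *Chrnd* and *Chrng* are neighbours on the same strand, separated by 4586 bp between their GENCODE positions. *Chrna1*, *Chrnd* and *Chrng* passed both cutoffs in every alternative setting in which they could be fitted, which were 14, 15 and 14 settings.

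*Chrnb1*, which encodes the β1 subunit, was the least abundant of the 4 subunit genes in use and kept the highest level of them in dCas9-KRAB-En5 replicates 1 and 2. *Chrnb1* (ENSMUSG00000041189, chr11:69784036-69795943, minus strand) had 8.12, 14.0 and 9.13 TPM in dCas9-KRAB and 2.31, 2.38 and 0.121 TPM in dCas9-KRAB-En5 libraries. The groups did not overlap, and dCas9-KRAB-En5 replicate 3 lay well below the other dCas9-KRAB-En5 libraries. The log2 fold change was -3.15 (SE 0.71) with an edgeR adjusted p of 0.0120, which missed the cutoff of 0.01. With the replicate block it was -3.48 (edgeR adjusted p = 0.00155), and without dCas9-KRAB-En5 replicate 3 it was -2.75 (edgeR adjusted p = 0.000989), both past the cutoffs. Of 14 alternative settings, 6 called *Chrnb1*. It was not called without dCas9-KRAB replicate 1, 2 or 3 (edgeR adjusted p = 0.0494, 0.0476 and 0.0250). Nor was it called without dCas9-KRAB-En5 replicate 1 or 2 (edgeR adjusted p = 0.0120 and 0.0229).

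The summed level of the 5 subunit genes was 108-fold lower in dCas9-KRAB-En5 cells. It was 146, 280 and 202 TPM in dCas9-KRAB and 2.58, 2.71 and 0.536 TPM in dCas9-KRAB-En5 libraries (two-sided exact permutation p = 0.1, which is the lowest value possible with 3 against 3 libraries). In dCas9-KRAB libraries α1 made up 29.3% to 34.0% of the summed TPM, γ 32.2% to 42.8%, δ 22.3% to 28.2% and β1 4.52% to 5.55%. The level of *Chrnb1* relative to that of *Chrna1* was nearly constant in this group, at 0.157 ± 0.00538 (SD, n = 3). The ratio of *Chrnd* to *Chrna1* was 0.770 ± 0.0751 and that of *Chrng* to *Chrna1* 1.21 ± 0.257 (SD, n = 3). In dCas9-KRAB-En5 replicates 1 and 2, β1 made up 89.5% and 87.7% of the small remainder. In replicate 3, which had 7 counts of *Chrnb1*, the remainder was 49.6% δ, 27.9% α1 and 22.5% β1.

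**Figure D2:**
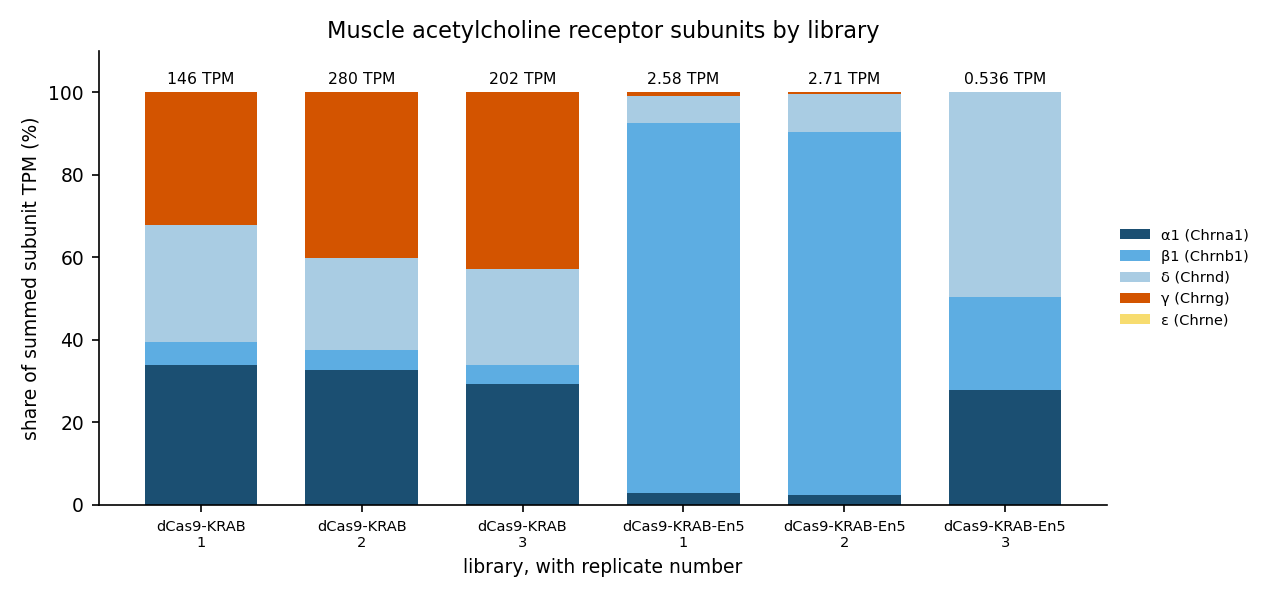
Share of the summed TPM of the 5 receptor subunit genes held by each gene (y axis, percent) in each library (x axis), with the summed TPM printed over each bar and *Chrne* too small to be seen. γ, α1 and δ fill most of each dCas9-KRAB bar at 146 to 280 TPM, whereas the dCas9-KRAB-En5 bars stand for only 0.536 to 2.71 TPM and are mostly β1 in replicates 1 and 2.

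The fetal γ subunit held almost all of the transcripts of the developmentally exchanged pair in dCas9-KRAB cells. *Chrne* (ENSMUSG00000014609, chr11:70614883-70619216, minus strand), which encodes the adult ε subunit, had 0, 6 and 6 counts in dCas9-KRAB and 0 in every dCas9-KRAB-En5 library. In TPM, γ made up 99.9% ± 0.0509 (SD, n = 3) of γ plus ε in dCas9-KRAB libraries. In counts, ε made up at most 0.0372% of the pair. *Chrne* was too low to be tested with edgeR, and the groups' TPM did not separate (exact permutation test, two-sided, p = 0.4). No shift between γ and ε could be read in dCas9-KRAB-En5 cells, where both were at or below 3 counts per library. *4930544D05Rik*, which overlaps *Chrne* on the opposite strand without sharing exons, had 0 counts throughout.

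*Rapsn*, which encodes the scaffold that binds the receptor on its cytoplasmic side, was lower in every dCas9-KRAB-En5 library, but its call depended on the model. *Rapsn* (ENSMUSG00000002104, chr2:91035620-91045729, plus strand) had 75.5, 104 and 97.1 TPM in dCas9-KRAB and 4.30, 2.68 and 13.7 TPM in dCas9-KRAB-En5 libraries. dCas9-KRAB-En5 replicate 3 was the highest of its group here, opposite to its place for *Chrnb1*. The mean TPM was 13.4-fold lower in dCas9-KRAB-En5, with a log2 fold change of -3.37 (SE 0.83) and an edgeR adjusted p of 0.0183 that missed the cutoff. The blocked value was -4.25 (edgeR adjusted p = 0.00048), and without dCas9-KRAB-En5 replicate 3 it was -5.31 (edgeR adjusted p = 4.97e-05). Of 15 alternative settings, 6 called *Rapsn*. It was not called without dCas9-KRAB replicate 1, 2 or 3 (edgeR adjusted p = 0.0822, 0.0520 and 0.0443). Nor was it called without dCas9-KRAB-En5 replicate 1 or 2 (edgeR adjusted p = 0.0316 and 0.0269). *Gm13778* overlaps 4 exonic bases of *Rapsn* on the opposite strand and had at most 29 counts.

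The members of the MuSK complex were low in both groups, and 1 of the 3 was called lower, beside 4.67% of all genes tested. *Dok7* and *Musk* entered the test through the dCas9-KRAB group, in which they were higher, so this count is a description. *Dok7* (ENSMUSG00000044716, chr5:35056766-35087839, plus strand), the adaptor that keeps MuSK active, had 48, 294 and 169 counts in dCas9-KRAB (0.414, 1.84 and 0.883 TPM) and 0 counts in all 3 dCas9-KRAB-En5 libraries. Against a floor of 3 counts over the group its level in dCas9-KRAB-En5 was lower by at least 101-fold (edgeR adjusted p = 0.00213). *Dok7* lost its call without dCas9-KRAB replicate 1 (edgeR adjusted p = 0.0160) or without dCas9-KRAB replicate 2 (edgeR adjusted p = 0.0154), and on log2(TPM + 1) (limma adjusted p = 0.0295).

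*Musk* (ENSMUSG00000057280, chr4:58285960-58374303, plus strand), the receptor tyrosine kinase, had 73, 30 and 63 counts in dCas9-KRAB (0.712, 0.212 and 0.373 TPM). In dCas9-KRAB-En5 it had 7, 9 and 0 counts (0.0875, 0.141 and 0 TPM). The groups did not overlap, but the log2 fold change of -3.004 (SE 1.12) was not past the cutoff (edgeR adjusted p = 0.0842), and no alternative setting called it. *Lrp4* (ENSMUSG00000027253, chr2:91457511-91513779, plus strand), the agrin receptor, had 0.474, 1.25 and 0.610 TPM against 0.238, 0.505 and 0.337 TPM. The groups of *Lrp4* overlapped, and the log2 fold change was -1.13 (SE 0.62, edgeR adjusted p = 0.229).

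*Agrn*, the organizer of the synapse, showed no separation between the groups. *Agrn* (ENSMUSG00000041936, chr4:156165290-156197488, minus strand) had 4.12, 19.6 and 10.3 TPM in dCas9-KRAB and 13.7, 21.4 and 5.32 TPM in dCas9-KRAB-En5 libraries. The ranges overlapped almost entirely, at depths of 1039 to 6816 counts. Its log2 fold change was -0.03 (SE 0.52, edgeR adjusted p = 0.98) and changed sign between settings, from -0.47 to 0.47. The counts do not tell neural from muscle splice forms of agrin, so the form present was not analysed here. The median log2 fold change of the 9 members tested was -3.37, beside 0.08 over all genes tested.

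**Figure D3:**
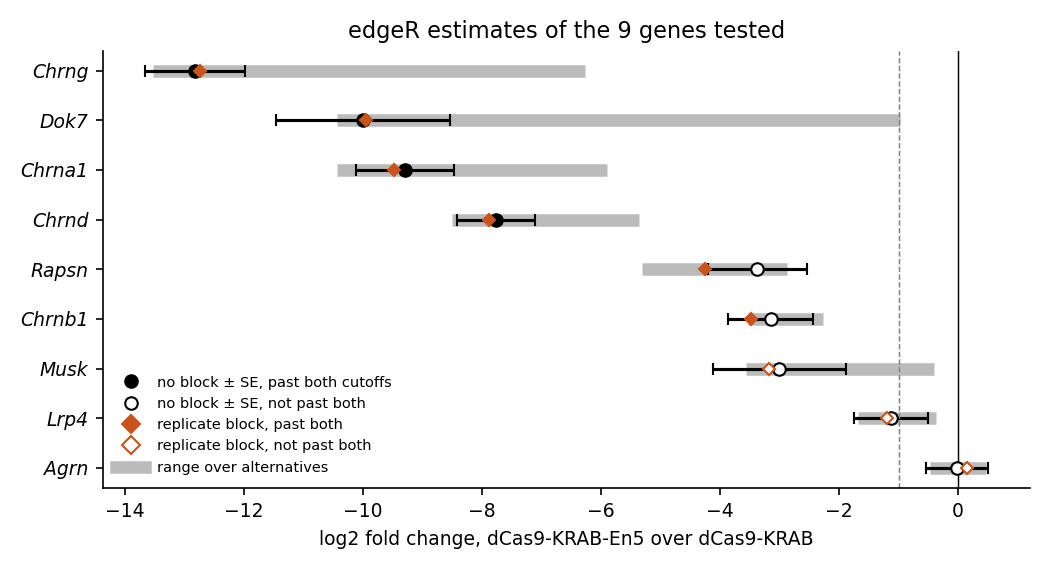
Log2 fold change (dCas9-KRAB-En5 over dCas9-KRAB, x axis) of the 9 genes tested, with circles for the edgeR model without a block (bars, SE), diamonds for the model with the replicate block, filled symbols past both cutoffs, and grey bands for the range over all alternative settings including log2(TPM + pseudocount). *Chrng*, *Dok7*, *Chrna1* and *Chrnd* lie at -7.77 or lower, of the 2 models drawn, *Rapsn* and *Chrnb1* are past the cutoffs in the blocked one, and *Agrn* lies at -0.03.

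Cells that could supply the nerve side of the junction were not evident in the marker genes. Of 10 motor neuron genes, 5 (*Slc5a7*, *Slc18a3*, *Mnx1*, *Nefh* and *Snap25*) were listed in no library, and the 10 summed to 0.472 to 0.978 TPM in dCas9-KRAB and 1.12 to 2.57 TPM in dCas9-KRAB-En5. Of 10 Schwann cell genes, *Sox10*, *Foxd3*, *Cdh19* and *Pmp2* were listed in no library. Their sum was 5.01 to 9.07 TPM in dCas9-KRAB and 6.33 to 59.8 TPM in dCas9-KRAB-En5, of which *Mbp* alone was up to 55.2 TPM. The 10 fibroblast genes summed to 77.6 to 237 TPM in dCas9-KRAB and 26.5 to 55.5 TPM in dCas9-KRAB-En5, with *Thy1* and *Tcf21* listed nowhere. The part of these cell types in the results was not tested.

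The rest of the junction, in 62 genes listed by function, held calls in both directions and a majority of genes that were not called. Of these 62, 49 were listed in at least 1 library and 45 were tested, and edgeR called 5 lower (11.1%, beside 4.67% of all genes) and 2 higher (4.44%, beside 1.52%). The median log2 fold change was 0.11. With the replicate block, 9 were called lower and 6 higher, beside 6.79% and 3.94% of all genes, and without dCas9-KRAB-En5 replicate 3, 9 lower and 11 higher, beside 14.0% and 11.7% of all genes. Leaving out any 1 dCas9-KRAB library left 0 called higher and 2, 3 and 3 called lower (without replicates 1, 2 and 3), and leaving out dCas9-KRAB-En5 replicate 2 left 1 higher and 3 lower. The share of all genes called in these last fits is not given, so whether the calls of all genes fell alike cannot be read from these counts.

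Neuronal receptor subunit genes were low or unlisted in both groups. Of 11 such genes, 8 were listed in no library and *Chrna10* was listed in 1. *Chrnb2*, which encodes the β2 subunit, had 0.431 to 1.81 TPM in dCas9-KRAB and 1.37 to 5.18 TPM in dCas9-KRAB-En5 libraries, with overlapping ranges (log2 fold change 1.34, SE 0.55, edgeR adjusted p = 0.109). *Chrnb4* had 0.178 TPM or less in every library and a log2 fold change of -0.17 (edgeR adjusted p = 0.933).

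Among 9 genes of the synaptic cleft and basal lamina, 6 were tested, 1 was called lower (beside 4.67% of all genes) and 1 higher (beside 1.52%). *Hspg2*, which encodes perlecan, the heparan sulfate proteoglycan that anchors acetylcholinesterase, fell from 21.0 ± 10.96 to 2.87 ± 0.835 TPM (SD, n = 3, log2 fold change -2.86, SE 0.56, edgeR adjusted p = 0.00644). Of 15 alternative settings, 8 called *Hspg2*. *Lama4*, which encodes the laminin α4 chain, rose from 1.05 ± 0.606 to 16.5 ± 14.9 TPM (SD, n = 3, log2 fold change 3.56, SE 0.62, edgeR adjusted p = 0.00348), and 10 of 15 alternative settings called it. *Lama5*, the laminin α5 gene, had a log2 fold change of -2.50 (edgeR adjusted p = 0.0243) and was called with the block (-2.75, edgeR adjusted p = 0.00307). *Lamb2*, the synaptic laminin β2 gene, had a log2 fold change of -1.58 (edgeR adjusted p = 0.0476), and *Nid2*, a nidogen gene, one of 2.50 (edgeR adjusted p = 0.0940). *Nid2* entered the test through the dCas9-KRAB-En5 group, in which it was higher.

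*Ache* encodes acetylcholinesterase, the enzyme that breaks down acetylcholine at the synapse. It had 2, 28 and 56 counts in dCas9-KRAB and 160, 204 and 60 in dCas9-KRAB-En5 libraries. Only in dCas9-KRAB-En5, the group in which it was higher, did all libraries reach the filter's minimum, so its fit is a description. Its TPM did not overlap between the groups, but its log2 fold change of 3.05 (SE 0.88) was not called (edgeR adjusted p = 0.0351, and 0.0138 with the block), whereas DESeq2 called it (adjusted p = 0.00151). *Colq*, which encodes the collagen that tethers the enzyme, was named after its values were seen. It had 4, 128 and 105 counts in dCas9-KRAB and 1, 1 and 0 in dCas9-KRAB-En5 libraries, did not pass the filter in edgeR, and its groups did not overlap in TPM. *Ache* overlaps *Gm42456* on the opposite strand, which had at most 10 counts.

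All 19 genes of the clustering scaffold and of MuSK signalling were tested, of which 2 were called lower (10.5%, beside 4.67% of all genes) and 1 higher (5.26%, beside 1.52%). Without dCas9-KRAB-En5 replicate 3 these were 3 lower and 6 higher, beside 14.0% and 11.7%. *Dtna*, which encodes α-dystrobrevin, fell from 0.845 ± 0.284 to 0.00511 ± 0.00448 TPM (SD, n = 3, log2 fold change -7.64, SE 0.85, edgeR adjusted p = 0.000182), on 3, 2 and 0 counts in dCas9-KRAB-En5. *Sntb1*, the β1-syntrophin gene, fell from 0.751 ± 0.408 to 0.00369 ± 0.00640 TPM (SD, n = 3, log2 fold change -7.76, SE 1.22, edgeR adjusted p = 0.00187), on 0, 1 and 0 counts in dCas9-KRAB-En5. Both genes entered the test through the dCas9-KRAB group, in which they were higher, so their calls are a description. *Sntb2*, a paralog of *Sntb1*, rose from 1.23 ± 0.303 to 14.8 ± 11.3 TPM (SD, n = 3, log2 fold change 3.14, SE 0.61, edgeR adjusted p = 0.00631), with dCas9-KRAB-En5 replicate 3 at 1.82 TPM beside 20.2 and 22.4 TPM. It was called in 8 of 15 alternative settings. *Src* and *Abl2*, kinases of the signalling downstream of MuSK, were called with the block, at log2 fold changes of -3.04 (edgeR adjusted p = 0.00136) and 2.02 (edgeR adjusted p = 0.00585). Without it they were not called, with edgeR adjusted p-values of 0.0102 and 0.0215. The adaptor gene *Crkl* (log2 fold change 2.09, edgeR adjusted p = 0.0316) and the kinase gene *Abl1* (1.52, edgeR adjusted p = 0.0688) were not called in either model. *Crkl* was called higher by DESeq2 (2.00, adjusted p = 0.00601) and without dCas9-KRAB-En5 replicate 3 (2.46, edgeR adjusted p = 0.000515).

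No gene of the 12 that transmit synaptic or activity signals to transcription was called among the 10 tested, and 1 was called lower and 2 higher with the block, beside 6.79% and 3.94% of all genes. *Erbb2*, a neuregulin receptor gene, had a log2 fold change of -4.07 (edgeR adjusted p = 0.0122), which was -4.56 with the block (edgeR adjusted p = 0.000548). It shares 9 exonic bases with *Mien1* on the opposite strand. *Hdac4* and *Hdac9*, which encode class IIa histone deacetylases that repress muscle transcription, had log2 fold changes of 2.31 (edgeR adjusted p = 0.0115) and 2.40 (edgeR adjusted p = 0.0266). With the block they were called, at 2.28 (edgeR adjusted p = 0.00280) and 2.57 (edgeR adjusted p = 0.00282). *Gabpb1*, a subunit gene of the ETS factor that binds N-boxes, had a log2 fold change of 1.27 (edgeR adjusted p = 0.130). *Erbb4* and *Dach2* were listed in no library.

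Of 8 genes for receptor assembly and glycosylation, 6 were tested and 0 were called without the block, beside 4.67% of all genes called lower and 1.52% higher. With the block 1 was called lower and 1 higher, beside 6.79% and 3.94% of all genes. *Gfpt1*, the first enzyme of the hexosamine pathway, had a log2 fold change of 2.64 (edgeR adjusted p = 0.0215) and was called with the block (2.29, edgeR adjusted p = 0.00759). *Gmppb*, which makes GDP-mannose, had -1.73 (edgeR adjusted p = 0.125) and was called with the block (-2.43, edgeR adjusted p = 0.00658), but it shares 937 exonic bases with *Rnf123* on the opposite strand, whose reads may count toward it. *Rer1*, a retrieval receptor gene, had a log2 fold change of -0.85 (edgeR adjusted p = 0.183), and *Alg2*, a mannosyltransferase gene, one of -0.76 (edgeR adjusted p = 0.412). The chaperone genes *Ric3* and *Tmem35a* were listed in no library.

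The 2 genes of excitation and adhesion that were tested were called lower, beside 4.67% of all genes. *Scn4a*, the voltage-gated sodium channel gene of adult muscle, fell from 0.647 ± 0.217 to 0.0156 ± 0.0271 TPM (SD, n = 3, log2 fold change -5.55, SE 1.16, edgeR adjusted p = 0.00865), on 7, 0 and 0 counts in dCas9-KRAB-En5. It too entered the test through the dCas9-KRAB group, and 8 of 14 alternative settings called it. *Ncam1*, the neural cell adhesion molecule gene, fell from 5.18 ± 2.63 to 0.304 ± 0.0755 TPM (SD, n = 3, log2 fold change -4.18, SE 0.54, edgeR adjusted p = 0.000527).

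**Figure D4:**
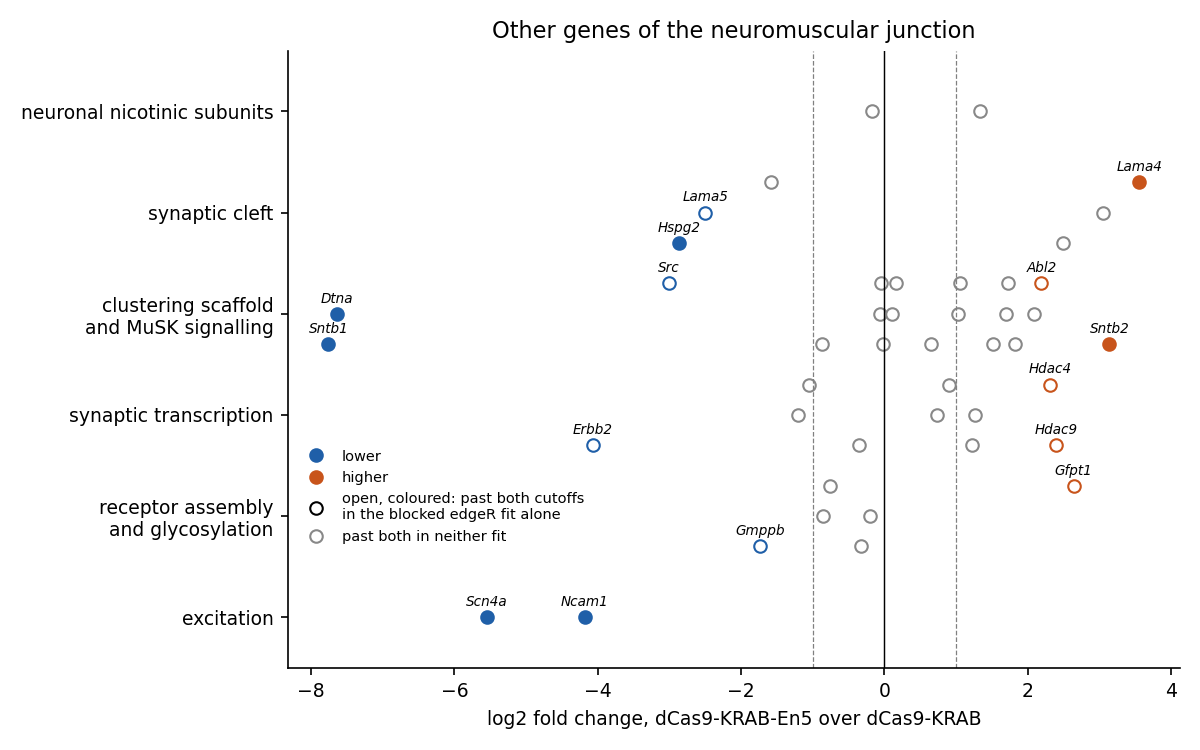
Log2 fold change (dCas9-KRAB-En5 over dCas9-KRAB) of the 45 tested genes of the wider junction lists, one point per gene, grouped by list and spread vertically for legibility, with filled points past both cutoffs, open coloured points past both in the blocked edgeR model but not in the model without it, and dashed lines at a size of 1. The 5 genes called lower lie in the cleft, scaffold and excitation lists and the 2 called higher, *Lama4* and *Sntb2*, in the cleft and scaffold lists.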

How the data were processed

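RNA-Seq of 3 dCas9-KRAB and 3 dCas9-KRAB-En5 libraries of C2C12 cells was used, grouped by the sample labels. The authors aligned reads with HISAT2 2.2.1 to GRCm38 (mm10) and counted them per gene with featureCounts. They deposited raw counts per gene and library, and the authors' TPM, which are counts per gene length scaled to 1000000 per library. The annotation release and strand setting are not given in the sources used here. Genes not listed in a library were taken as 0 counts. Gene names and positions were taken from GENCODE for GRCm38, in which 23155 of 23231 identifiers matched, and promoter sequences from RefSeq (GRCm38.p6).

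Counts were tested with edgeR 4.0.16 in R 4.3.3 (TMM, filterByExpr with a minimum count of 10 and minimum total of 15, quasi-likelihood test, condition alone in the model). P-values were adjusted by the Benjamini-Hochberg method over all 14378 genes tested, and calls needed an adjusted p no larger than 0.01 with a log2 fold change of 1 or more in size. SE was the fold change over the square root of its F statistic. The alternatives were other normalizations and filters, the replicate block, limma 3.58.1 on TPM with a pseudocount of 1 or 0.1 before log2, DESeq2 1.42.0, a cutoff of 0.05, and leaving out each library.

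The labels number the replicates 1 to 3 in both groups. Deviations of same-numbered libraries from their group means correlated across genes at 0.262, 0.214 and 0.290, and those of differently numbered libraries at -0.340 to -0.0508. Deviations from a mean cancel within each group, so positive values for same numbers bring negative values elsewhere. The contrast therefore cannot decide whether the numbers pair the libraries, and the labels do not say so. The main values come from the model without the block, and blocked values are given where a call changed. Libraries of 1 group differed beyond sampling noise (lowest chi-square over its degrees of freedom, 97.0), and each was counted as 1 replicate.

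The text names the 10 members, every wider-list gene past both cutoffs with up to 4 further genes a list by smallest adjusted p, *Myog* and *Myod1*, and genes that overlap them. Outside this rule it names *Colq*, after its values were seen, and some untested genes listed in 1 library or in none. Members and lists were chosen with earlier results of these data known. The result of 1 gene of the wider lists is not reported here.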

Additional observations from a re-analysis of the deposited data

How the results depend on the processing

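The number of members called lower was 4, and 1 when at least 10 counts were required in every library, a filter that *Chrna1*, *Chrnb1*, *Chrng*, *Musk* and *Dok7* did not pass and under which they could not be fitted. It ranged from 3 to 6 when 1 library was left out, and the 6 came without dCas9-KRAB-En5 replicate 3. The share of all genes called lower also moved, from 4.67% in the main model to 14.0% in the fit without that library. No setting called a member higher, DESeq2 included. The median log2 fold change of the tested members was -3.37, and became -2.29 with that filter, -4.25 with the replicate block and -2.26 on log2(TPM + 1), with a range of -5.31 to -3.28 when 1 library was left out. *Agrn* changed sign to 0.087 with total-count scaling, 0.15 with the replicate block, 0.26 on log2(TPM + 1), 0.29 on log2(TPM + 0.1), 0.03 without dCas9-KRAB-En5 replicate 1 or 3 and 0.47 without dCas9-KRAB replicate 2, with a range of -0.47 to 0.47 when 1 library was left out. Wider junction genes called lower were 5, and 10 with no filter, 3 with at least 10 counts in every library, 9 with the replicate block, 9 with DESeq2 (8 of them among the 45 genes tested in the main model), 0 on log2(TPM + 1) and 9 at an adjusted p of 0.05, with a range of 2 to 9 when 1 library was left out. Those called higher were 2, and 1 with total-count scaling, 8 with no filter, 6 with the replicate block, 8 with DESeq2, 0 on log2(TPM + 1), 0 on log2(TPM + 0.1) and 8 at an adjusted p of 0.05, with a range of 0 to 11 when 1 library was left out. The counts with no filter and with DESeq2 cover genes beyond the 45 tested in the main model. The share of all genes called is given only for the main model, the block, DESeq2 and the fit without dCas9-KRAB-En5 replicate 3. In the other settings the counts of members and junction genes are therefore descriptions, not set against all genes. The cause of these shifts was not tested. The median of all genes tested lay between -0.05 and 0.18 over the settings. Among the members, the block changed the calls of *Chrnb1* and *Rapsn* and no other. Counts at or below the floor of 3 limit *Chrng*, *Dok7* and *Chrne* in dCas9-KRAB-En5 libraries, and the strand setting limits genes with an opposite-strand overlap.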

Other observations

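Within the dCas9-KRAB group, replicate 1 had the lowest and replicate 2 the highest TPM for 9 of the 10 members, receptor subunits, *Rapsn*, *Dok7*, *Lrp4* and *Agrn* alike. For *Chrne*, which was not tested, this order rests on 0, 6 and 6 counts. Its replicates 2 and 3 differ in TPM through scaling alone. *Musk* was the exception, with its highest TPM (0.712) in replicate 1 and its lowest (0.212) in replicate 2. The same order of the 3 libraries was found for 36.0% of all genes tested. *Myod1* followed it with 33.8, 111 and 79.2 TPM in replicates 1 to 3, and *Myog* less steeply with 1065, 1224 and 1118 TPM. Among the 9 members with counts in all 3 libraries, the highest over the lowest TPM ran from 1.37-fold for *Rapsn* to 4.76-fold for *Agrn*.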
